A study of Danio rerio with 33 samples.

Results

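The collagen genes of the zebrafish were taken as every row of the deposited gene count table whose symbol is "col", a number, "a", a number and optional letters. This name rule matched 52 of 30490 genes. One of them, col4a3bpa, is listed by RefSeq (assembly GRCz12tu) as a synonym of cert1a, which encodes a lipid transfer protein and not a collagen, so 51 collagen genes were described. By structural class they comprised 15 fibrillar genes, 8 FACITs (collagens that attach to the surface of fibrils), 6 genes of the basement membrane network, 5 short-chain network genes, 4 beaded filament genes, 2 anchoring fibril genes, 4 transmembrane collagens, 3 multiplexins and 4 others, the type XXVIII genes.

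Collagens are secreted or membrane-bound proteins in which chains wind into a triple helix, and different classes assemble into fibrils, sheets, beaded filaments or anchors. In the zebrafish embryo the sheath around the notochord is rich in type II, IX and XI collagen, the sheets under epithelia carry type IV collagen, and type VII collagen anchors the skin to the tissue below. In adult gonads collagens lie in the connective tissue, the vessel walls and the basement membranes around germ cells and their supporting cells.

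The study measured poly(A) RNA in 33 libraries, 3 for each of 11 groups. The embryos were at the 10-somite stage. The 7 embryo groups were wild type with no injection listed, kctd15 mutant, and wild type injected with 100 pg kctd15, with 5 pg AP2, with 5 pg AP2-P59, with 5 pg AP2 plus 100 pg kctd15, or with 5 pg AP2-P59 plus 100 pg kctd15. No control injection is listed, and each kctd15 group received 100 pg more than its reference group. An effect of an injected gene and one of the injection or its amount thus cannot be told apart. The 4 adult groups were ovary and testis of wild-type fish and of kctd15 mutants. The Kctd15 protein is known as an inhibitor of AP2 transcription factors, which drive neural crest formation. The labels do not say which of the kctd15 genes carries the mutation, what kind of allele it is, which AP2 gene was injected, what P59 stands for, or how many embryos or fish went into a library. They call the replicates biological but tie none to a clutch or animal, so p-values measure the spread between these libraries.

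Each library held 15152199 to 24131756 estimated counts. Levels below are counts scaled by TMM to a common library size (CPM), computed on 1 of 3 scales, for the 21 embryo libraries, the 12 gonad libraries or the 9 wild-type libraries. Gene lengths were not at hand, so the levels of single genes are compared between samples and not between genes. Shares of counts taken by collagens or their classes are not corrected for gene length, and are likewise compared between samples. A gene is called changed at an adjusted p under 0.05 from edgeR's quasi-likelihood test, adjusted over all genes tested, and a log2 fold change is given with its standard error. The RNA of kctd15a was not depleted in mutant embryos: on the embryo scale it was 48.9 ± 8.70 CPM (SD, n = 3) in wild-type embryos and 189 ± 9.30 CPM (SD, n = 3) in mutant embryos. On the gonad scale kctd15b was lower in mutant ovary, at 1.06, 0.306 and 0.458 CPM against 4.98, 2.05 and 3.01 CPM in wild type, and overlapped between mutant and wild-type testis. The kctd15a transcript NM_001006012 had 171 to 731 estimated counts in 8 of the 9 kctd15-injected libraries. It had 0 to 34.1 in wild-type embryos and 120.5, 0 and 52.5 in mutant embryos. The transcript was near 0 in the other injected library, AP2-P59 plus kctd15 replicate 1, so the kctd15 results with AP2-P59 and the averaged ones are also given without that library. Over the whole gene, kctd15a was at 40.7 CPM there, within the wild-type 39.4 to 56.5 CPM. It was also within this range in AP2-P59 plus kctd15 replicate 2 (44.2 CPM) and kctd15 replicate 2 (51.8 CPM). Tissue markers followed the labels: on the 9-library scale the summed germ cell list (16 genes) was 41.5 to 56.1 CPM in wild-type embryos, 6804 to 8126 CPM in ovary and 5023 to 5188 CPM in testis, and the summed notochord list (22 genes) was 3892 to 4281, 305.5 to 402.6 and 348.4 to 534.2 CPM, in the same order.

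Collagen RNA took a small share of all counts, smallest in the ovary. It took 0.406%, 0.250% and 0.390% of the counts in wild-type embryo replicates 1 to 3. The share was 0.0428%, 0.0586% and 0.0545% in wild-type ovary and 0.272%, 0.236% and 0.235% in wild-type testis. All 3 ovary libraries lay below the other 6, while the testis range overlapped the low embryo replicate 2. In bulk tissue, fewer cells of a type and less collagen RNA per cell cannot be told apart.

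The make-up of that share differed between tissues. Fibrillar genes made up 38.6 ± 6.61% of collagen counts in wild-type embryos, 30.0 ± 2.15% in ovary and 55.5 ± 2.73% in testis (SD, n = 3 each). Beaded filament genes were 0.640% in embryos against 11.7% in ovary and 14.7% in testis. Multiplexins went the other way, with 16.3% in embryos, 11.4% in ovary and 3.46% in testis. Type XXVIII genes made up 16.7 ± 1.25% of collagen counts in ovary, mostly col28a1l, but 0.816% in embryos and 1.26% in testis.

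**Figure D1:**
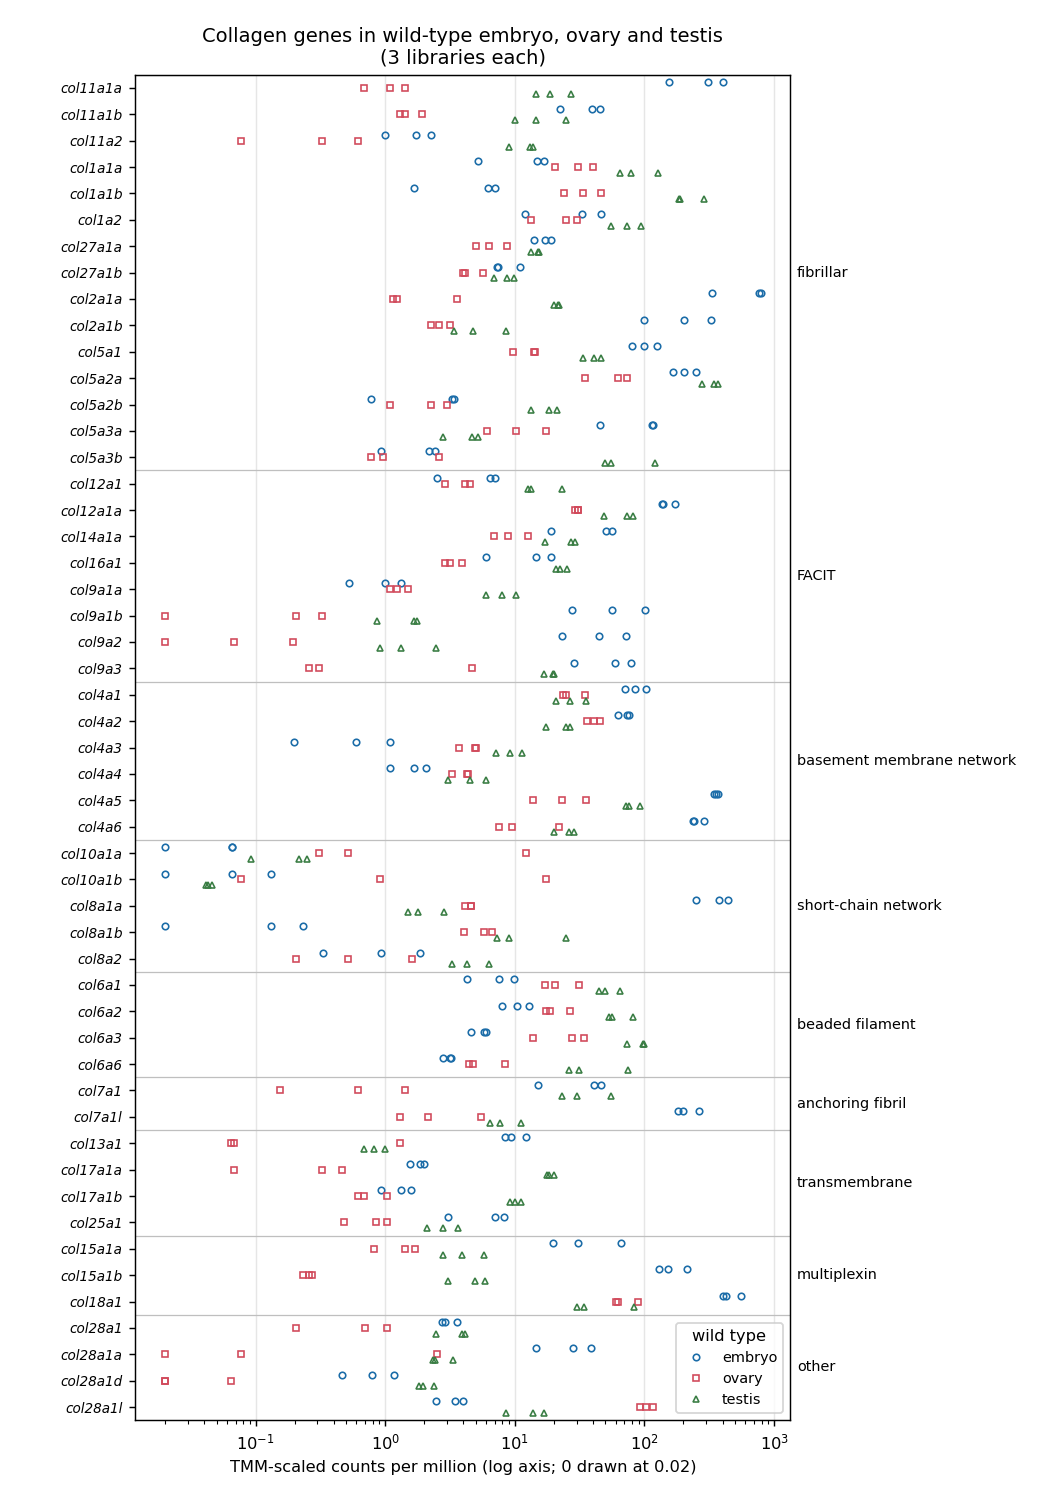
Level of each of the 51 collagen genes in the wild-type embryo (blue circles), ovary (red squares) and testis (green triangles), in TMM-scaled CPM on a log axis, 1 point per library and genes grouped by class. The type II genes, col11a1a, col9a1b and col9a2 lie far to the right in embryos and to the left in ovary, whereas col11a2 and col9a1a lie furthest right in testis, and type VI genes lie furthest right in testis.

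The 3 wild-type tissues differed in most collagen genes, as in most genes. Between testis and ovary 35 of 50 tested collagens changed, 31 higher and 4 lower in testis, beside 70.5% of all genes changed, 41.6% higher and 28.9% lower. Between ovary and embryo 41 of 49 changed, 9 higher and 32 lower in ovary, beside 69.8% of all genes, 32.6% higher and 37.2% lower. Between testis and embryo 41 of 49 changed, 21 higher and 20 lower in testis, beside 67.0% of all genes, 34.4% higher and 32.5% lower. The median log2 difference was 1.72 over the collagens and 0.72 over all genes for testis against ovary, -2.23 and -0.18 for ovary against embryo, and -0.01 and 0.07 for testis against embryo. The all-gene median for testis against ovary was 0.71 with RLE scaling, 0.95 without the filter on low counts and 0.49 with limma on the deposited normalized values. The 2 comparisons with the embryo share its libraries, and those with a common gonad share that one, so they are given side by side.

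Among the fibrillar genes the notochord and cartilage collagens of types II and XI were highest in embryos, except col11a2. col2a1a, which encodes the type II chain of cartilage and notochord sheath, was at 787, 331 and 765 CPM in wild-type embryos on the 9-library scale. It was at 3.55, 1.24 and 1.16 CPM in ovary and 21.5, 19.9 and 22 CPM in testis. The groups did not overlap, and embryo replicate 2 was the low one of its group. The fall against embryo was 8.28 ± 0.53 on the log2 scale in ovary (adjusted p = 3.0e-07) and 4.89 ± 0.44 in testis (adjusted p = 4.4e-06). Its duplicate col2a1b was at 323, 98.6 and 203 CPM in embryos and at 2.24 to 3.17 CPM in ovary and 3.38 to 8.61 CPM in testis. col11a1a, a type XI chain that joins type II fibrils, was at 401, 155 and 310 CPM in embryos, 0.687 to 1.42 CPM in ovary and 14.6 to 27.3 CPM in testis. Unlike these, col11a2, another type XI chain, was highest in testis, at 13.7, 9.02 and 13 CPM against 0.995 to 2.25 CPM in embryos and 0.0772 to 0.618 CPM in ovary.

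Type I collagen, the main fibril protein of connective tissue, was highest in testis. The α1 chain gene col1a1b was at 6.22, 1.66 and 7.0 CPM in embryos, 24, 46.5 and 33.4 CPM in ovary and 289, 185 and 186 CPM in testis. These ranges did not overlap, and the log2 rise over embryo was 2.81 ± 0.46 in ovary (adjusted p = 0.00028) and 5.47 ± 0.50 in testis (adjusted p = 5.4e-06). Its duplicate col1a1a rose by less, by 1.31 ± 0.42 in ovary (adjusted p = 0.017) and 2.88 ± 0.44 in testis (adjusted p = 0.00020). The α2 chain gene col1a2 was at 12 to 46.6 CPM in embryos and 13.3 to 30.4 CPM in ovary, which overlapped, with a log2 difference of -0.41 ± 0.45 (adjusted p = 0.42). In testis col1a2 reached 55.2 to 94.3 CPM and was higher than in embryos by 1.29 ± 0.45 (adjusted p = 0.026). The rises of type I in the gonads were thus not of 1 size over its 3 genes.

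Type V collagen regulates the width of type I fibrils, and its genes divided between the tissues. col5a1 was at 80.7 to 124 CPM in embryos, 9.76 to 14.4 CPM in ovary and 33.6 to 46.5 CPM in testis. col5a2a was at 165 to 251 CPM in embryos, 34.9 to 73.8 CPM in ovary and 276 to 369 CPM in testis. Of the α3 pair, col5a3a was an embryo gene, at 117, 45.2 and 114 CPM there and 2.80 to 5.17 CPM in testis. Its duplicate col5a3b was a testis gene, at 121, 49.2 and 54.8 CPM there, against 0.929 to 2.41 CPM in embryos and 0.772 to 2.58 CPM in ovary.

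FACITs were higher in testis than in ovary for all 8 of 8 genes tested, beside 41.6% of all genes, and 6 of 8 were lower in ovary than in embryo, with none higher, beside 37.2% of all genes lower and 32.6% higher. Type IX collagen decorates type II fibrils, and 3 of its genes followed col2a1a. col9a2 was at 72.4, 23.1 and 44.9 CPM in embryos, 0 to 0.194 CPM in ovary and 0.918 to 2.47 CPM in testis, a fall from embryo of 8.88 ± 0.76 in ovary (adjusted p = 2.0e-06) and 4.89 ± 0.56 in testis (adjusted p = 2.1e-05). col9a1b was at 27.8 to 101 CPM in embryos, 0 to 0.323 CPM in ovary and 0.870 to 1.77 CPM in testis. Embryo and testis overlapped in neither gene. col9a3 was at 28.6 to 79.1 CPM in embryos and 16.8 to 20.2 CPM in testis, and its ovary value rested partly on 1 library, with 0.258, 4.67 and 0.309 CPM. Without ovary replicate 2 its fall from embryo to ovary was 7.58 instead of 4.98, and its rise from ovary to testis 6.04 instead of 3.43.

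Of the other FACITs, col12a1a and col14a1a, which bind type I fibrils, were highest in embryos. col12a1a was at 137, 139 and 172 CPM in embryos, 28.9 to 30.6 CPM in ovary and 48.5 to 81.6 CPM in testis. col14a1a was at 56.6, 19 and 50.1 CPM in embryos, 6.94 to 12.7 CPM in ovary and 17 to 28.9 CPM in testis, where it overlapped the embryo (adjusted p = 0.096). col16a1, a FACIT of basement membrane zones in mammals, was at 18.9, 6.04 and 14.6 CPM in embryos, 2.91 to 3.94 CPM in ovary and 20.9 to 25.1 CPM in testis.

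Basement membrane collagen showed 2 patterns that followed its pairs of neighbouring genes. In assembly GRCz12tu col4a1 neighbours col4a2 on chromosome 9, col4a3 neighbours col4a4 on chromosome 15, and col4a5 neighbours col4a6 on chromosome 7. col4a5 was at 347, 356 and 368 CPM in embryos, 13.9 to 35.6 CPM in ovary and 71.9 to 92 CPM in testis, a fall of 3.88 ± 0.31 in ovary and 2.16 ± 0.28 in testis (adjusted p = 1.1e-06 and 5.9e-05). col4a6 fell likewise, by 4.30 ± 0.37 and 3.36 ± 0.36. The ubiquitous chains col4a1 and col4a2 fell by less, 1.63 ± 0.25 and 0.80 ± 0.20 in ovary. col4a3 rose instead, from 1.09, 0.199 and 0.595 CPM in embryos to 3.70 to 4.98 CPM in ovary and 7.14 to 11.3 CPM in testis, by 2.86 ± 0.51 and 3.88 ± 0.51 (adjusted p = 0.00042 and 6.1e-05). Its neighbour col4a4 rose by 1.30 ± 0.40 and 1.5 ± 0.39. In ovary both genes of each pair moved in the same direction from embryo. In testis this held for the col4a5 and col4a3 pairs, while testis values of col4a1 and col4a2 are not given here.

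Among the short-chain network genes the type VIII pair had opposite tissues. col8a1a, a gene of the notochord sheath in zebrafish, was at 376, 248 and 439 CPM in embryos, 4.12 to 4.59 CPM in ovary and 1.51 to 2.84 CPM in testis. col8a1b was at 0.233, 0 and 0.132 CPM in embryos, 4.05 to 6.71 CPM in ovary and 7.28 to 25 CPM in testis, where replicate 3 was the high one. The type X genes, known from hypertrophic cartilage, were seen mainly in 1 library. col10a1b was at 0.905, 17.4 and 0.0772 CPM in ovary and col10a1a at 0.517, 12.1 and 0.309 CPM, with replicate 2 far above the others. In testis col10a1b had 3 estimated counts over the 3 libraries, against 268 in ovary, a ratio of 0.00701 (exact 95% interval 0.00144 to 0.0207, counting error only). Without ovary replicate 2 the testis-against-ovary call of col10a1b was lost, at a log2 difference of -3.34 (adjusted p = 0.051).

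Type VI collagen, which forms beaded filaments around cells, was a gonad collagen. col6a3 was at 4.59, 5.97 and 5.75 CPM in embryos, 13.9 to 33.9 CPM in ovary and 73.8 to 98.9 CPM in testis, and rose by 2.2 ± 0.31 in ovary and 4.05 ± 0.33 in testis (adjusted p = 8.2e-05 and 1.7e-06). col6a1 and col6a2 also rose in both gonads, col6a1 by 1.66 and 2.87 and col6a2 by 1.0 and 2.61. col6a6 rose in testis by 3.84 ± 0.45, while in ovary its difference was 0.94 ± 0.42 (adjusted p = 0.065). Some marker lists moved with these genes. On the same scale the summed smooth muscle list (11 genes) was 52.5 to 81.6 CPM in embryos, 188 to 299 CPM in ovary and 303 to 1058 CPM in testis. The leukocyte list (9 genes) was 22.3 to 35.1, 96.0 to 207.2 and 211.0 to 624.6 CPM, in the same order. The list for somatic cells of the gonad (15 genes) was 118.1 to 136.7, 352.7 to 450.1 and 3217 to 6912 CPM. The sclerotome and fibroblast list (23 genes) moved the other way, with 2235 to 3024, 1260 to 1823 and 905 to 1136 CPM. The part of cell composition in the collagen differences was not tested.

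The anchoring fibril genes, which encode type VII collagen of the skin, differed from each other. col7a1 was at 46.4, 15 and 41.0 CPM in embryos, 1.42, 0.618 and 0.154 CPM in ovary and 54.8, 30.0 and 22.9 CPM in testis. Embryo and testis overlapped (log2 difference 0.07 ± 0.53, adjusted p = 0.91), and ovary was lower than embryo by 5.49 ± 0.69 (adjusted p = 4.1e-05). col7a1l was at 197, 180 and 266 CPM in embryos, 1.31 to 5.49 CPM in ovary and 6.47 to 11.2 CPM in testis, and fell in both gonads, by 6.15 ± 0.49 and 4.66 ± 0.44.

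Type XVII collagen, a transmembrane collagen of hemidesmosomes, was highest in testis. col17a1a was at 20.1, 17.6 and 18.4 CPM in testis, 1.55 to 1.98 CPM in embryos and 0.0687 to 0.463 CPM in ovary. The rise from ovary to testis was 6.03 ± 0.52 (adjusted p = 9.0e-07). Its duplicate col17a1b was at 9.11 to 11.1 CPM in testis and 0.617 to 1.59 CPM across embryo and ovary. Meanwhile the summed epidermis and periderm list (24 genes) was 25571 to 31954 CPM in embryos but 1678 to 1872 CPM in testis, below the 2069 to 3559 CPM of ovary.

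Multiplexins, which are basement membrane proteins carrying sugar chains, were embryo genes. col15a1b fell most of the collagens between embryo and ovary, from 215, 129 and 151 CPM to 0.258, 0.275 and 0.231 CPM, by 9.29 ± 0.40 (adjusted p = 2.2e-08), and was at 3.07 to 5.90 CPM in testis. col18a1, the source of endostatin, was at 403 to 555 CPM in embryos, 60.7 to 88.7 CPM in ovary and 30.1 to 82.3 CPM in testis. The type XXVIII gene col28a1l marked the ovary, with 92.1, 116 and 103 CPM there, 2.44 to 3.97 CPM in embryos and 8.48 to 16.9 CPM in testis. It rose from embryo to ovary by 4.98 ± 0.31 (adjusted p = 2.0e-07). The other type XXVIII gene that differed by most, col28a1d, had 1 estimated count in ovary against 142 in testis, a ratio of testis to ovary of 89.0 (exact 95% interval 15.7 to 3538).

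Duplicated genes came as 11 a/b pairs by name, of which 10 had both copies tested between tissues. Between testis and embryo both copies passed the test in the same direction in 6 pairs and in opposite directions in 3. Over all genes 34.4% were higher and 32.5% lower there. Between testis and ovary this was 4 and 2 pairs, beside 41.6% of all genes higher and 28.9% lower. Between ovary and embryo it was 5 and 1, beside 32.6% and 37.2%. Pairs of other genes were not counted, so whether these numbers of pairs are unusual was not tested. The opposite pairs between testis and embryo were col5a3, col8a1 and col9a1. For col8a1 the log2 difference was -7.43 ± 0.33 for the a copy and 6.79 ± 0.79 for the b copy. For col5a3 it was -4.44 ± 0.49 and 5.35 ± 0.57. For col9a1 the signs were reversed, at 3.08 ± 0.43 for the a copy and -5.42 ± 0.59 for the b copy. The shares of counts between near-identical copies depend on how estimated counts split shared reads.

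**Figure D2:**
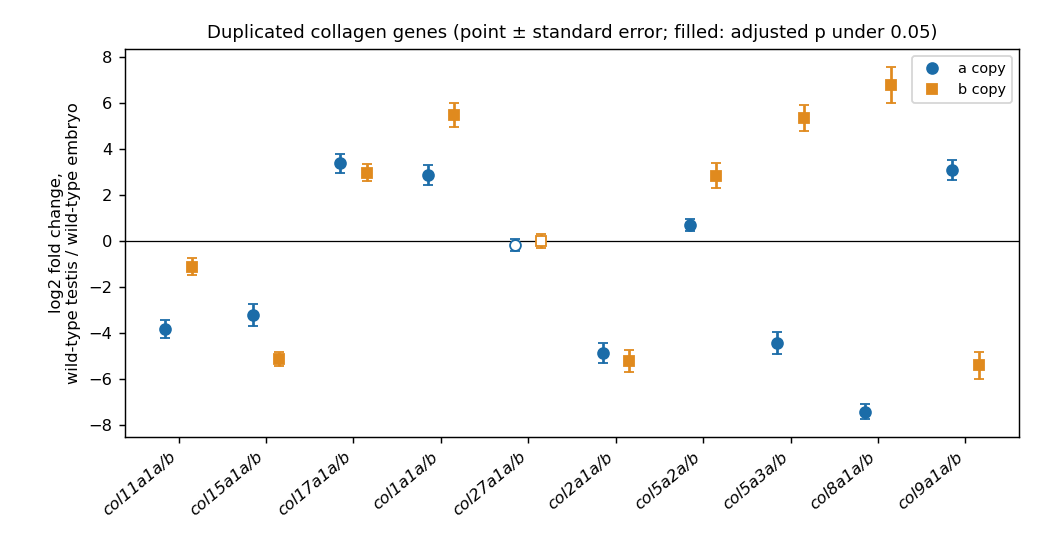
Log2 fold change between wild-type testis and wild-type embryo (y axis, point ± standard error) for the a copy (blue circles) and b copy (orange squares) of the 10 duplicated collagen genes with both copies tested; filled points have an adjusted p under 0.05. The copies of col5a3, col8a1 and col9a1 lie on opposite sides of 0.

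Transcript values were deposited too, and 33 of the collagen genes had matched transcripts. Only 6 genes had 2 or more transcripts that together came within 10% of the gene count, col11a1a and col2a1a among them. For col11a1a the transcript XM_005162813 held 78.7%, 82.3% and 75.3% of the gene's counts in wild-type embryos and 19.3%, 0.0024% and 0.49% in wild-type testis. In mutant testis the same share was 5.76%, 15.4% and 71.0%, so 1 testis library came near the embryo range. For col2a1a the transcript NM_131292 held 50.5%, 53.2% and 60.1% in wild-type embryos and 64.1%, 60.8% and 66.1% in mutant embryos. These are estimates by the authors' quantifier, with no test.

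In mutant embryos the type XI gene col11a1b was lower than in wild type. Of 48 tested collagens it alone passed the test, beside 4.09% of all genes changed, 1.36% higher and 2.73% lower. DESeq2 called 4 collagens, 1 higher and 3 lower, beside 7.45% of all genes. col11a1b, the duplicate of the type XI gene above, was at 38.3, 18.8 and 33.6 CPM in wild-type embryos and 16.8, 14 and 15.6 CPM in mutant embryos on the embryo scale. Each mutant library lay below each wild-type library, though wild-type replicate 2 was close. It fell by 0.96 ± 0.21 (adjusted p = 0.014), and the call was lost in 4 of 6 fits without 1 library, at an adjusted p of 0.059 to 0.077. Its duplicate col11a1a had a log2 difference of -0.16 ± 0.31 (adjusted p = 0.82).

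Other members that came near the threshold in mutant embryos are given by value. The type XXVIII gene col28a1a was at 23.9, 12.2 and 32.8 CPM in wild type and 11.7, 13.4 and 10.7 CPM in mutants, which overlapped (log2 -0.94 ± 0.27, adjusted p = 0.051). The transmembrane collagen gene col25a1 was at 5.93, 2.58 and 7.02 CPM against 1.94, 2.08 and 1.24 CPM, with no overlap (-1.56 ± 0.47, adjusted p = 0.068). The fibrillar col5a3b was at 2.04, 0.784 and 1.85 CPM against 6.39, 2.32 and 4.6 CPM, again with no overlap (1.51 ± 0.50, adjusted p = 0.096). The groups were apart for 5 collagens higher and 8 lower in mutants, against 12.5% and 13.9% of all genes. All 8 FACIT genes had a negative log2 difference, with a median of -0.30, but 0 of 8 passed the test. A negative difference was also seen in 32 of the 48 collagens (median -0.17) and in 51.4% of all genes (median -0.01). At an unadjusted p under 0.05 stood 11 of 48 collagens and 19.8% of all genes.

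**Figure D3:**
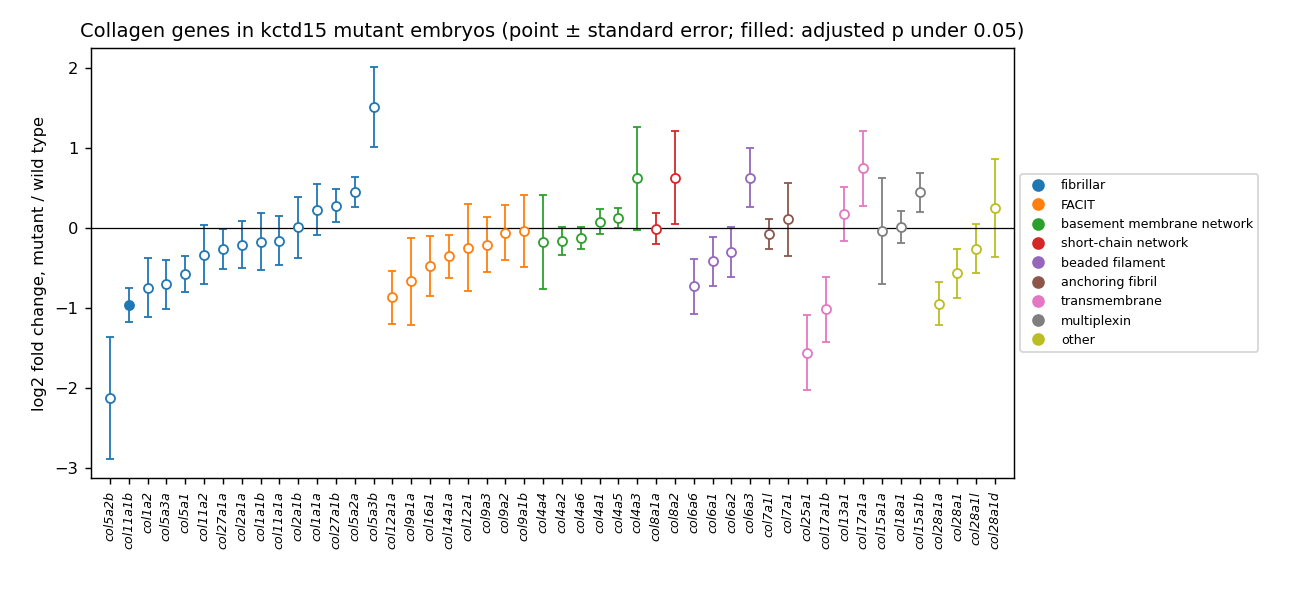
Log2 fold change of each of the 48 tested collagen genes in kctd15 mutant embryos against wild-type embryos (y axis, point ± standard error), ordered by class and coloured as in the legend. Only col11a1b, at -0.96, is filled, the mark for an adjusted p under 0.05; all 8 FACIT points lie below 0, as do 32 of the 48 in all.

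Wild-type embryo replicate 2 stood apart from the other wild-type embryos in these genes. It was the lowest of the 3 for 36 of 48 collagens, against 36.0% of all genes. Replicate 2 was also lowest for 36 of 48 with AP2 plus kctd15, 28 with kctd15, 25 with AP2 and 24 in mutants. The all-gene shares there were 30.8%, 32.5%, 35.6% and 31.3%. With AP2-P59 and AP2-P59 plus kctd15 it was lowest for 10 and 17 (33.2% and 34.7% of all genes). What replicate 2 shares between groups was not tested. In wild-type replicate 2 the summed skeletal muscle list (12 genes) was 55.2 CPM against 170.5 and 164.7 CPM in the other wild-type replicates. Its summed notochord list was 3287 CPM against 3628 and 3398 CPM. Without this library 3 collagens were lower in mutant embryos, beside 1.95% of all genes changed: col11a1b by 1.21, col28a1a by 1.25 and col25a1 by 1.88. In mutant embryos the summed epidermis and periderm list was 30071 to 40559 CPM against 21723 to 27078 CPM in wild type, and 22 of its 24 genes had a positive log2 difference. Other summed lists were also apart: fin fold was higher, at 1416 to 1625 CPM against 1297 to 1351 CPM, and leukocyte higher, at 35.5 to 39.1 CPM against 18.8 to 29.8 CPM. Endothelium was lower, at 137 to 144 CPM against 157 to 199 CPM. The list named liver was lower too, at 1476 to 1724 CPM against 1744 to 2168 CPM. A list name does not show that such cells were present at the 10-somite stage. The part of the cells that express these lists in the collagen values was not tested.

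Injection of kctd15, AP2 or AP2-P59 alone changed 0 of 48 collagens against wild-type embryos, and 0% of all genes passed the test in each case. At an unadjusted p under 0.05 stood 5, 2 and 5 collagens and 3.42%, 3.34% and 5.38% of all genes, in that order. DESeq2 gave 0 collagens in each of the 3 comparisons, beside 16, 0 and 11 of all genes for kctd15, AP2 and AP2-P59. The 3 comparisons share the wild-type libraries, among them replicate 2, the lowest of the wild-type embryos for 36 of 48 collagens. In direction, 31 of 48 collagens were higher with kctd15, 32 with AP2 and 33 with AP2-P59. Over all genes 49.9%, 49.2% and 49.3% were higher, in that order. The collagen medians were 0.18, 0.14 and 0.16, beside all-gene medians of -0.0003, -0.005 and -0.004. With kctd15 all 3 libraries lay above all wild-type libraries for 6 collagens and below for 0, against 4.22% and 3.56% of all genes. With AP2 this held for 2 and 3 (3.45% and 3.21% of all genes), and with AP2-P59 for 6 and 0 (5.25% and 4.66%). The smallest p with kctd15 belonged to the type I gene col1a1a, at 19.9, 19.1 and 16.2 CPM against 12.5, 4.42 and 14.3 CPM in wild type (log2 0.83 ± 0.32, adjusted p = 1, and 0.45 without wild-type replicate 2). With AP2 and with AP2-P59 the smallest p belonged to col16a1. It was at 16, 5.10 and 12.4 CPM in wild type, 19.8, 28.4 and 19.8 CPM with AP2 and 33.6, 24.9 and 24.1 CPM with AP2-P59. The log2 differences were 1.02 ± 0.37 and 1.30 ± 0.37 (adjusted p = 1.0 and 0.86), and 0.67 and 0.95 without wild-type replicate 2.

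Adding kctd15 to AP2 lowered col16a1 in the main fit, a call at the threshold. The anchoring fibril gene col7a1 had the next smallest p and was not called. Of 48 collagens 1 changed and was lower, beside 0.197% of all genes changed, 0.0134% higher and 0.184% lower. col16a1 went from 19.8, 28.4 and 19.8 CPM with AP2 to 9.0, 3.70 and 5.59 CPM with AP2 plus kctd15. The groups did not overlap, and the fall was 1.89 ± 0.38 (adjusted p = 0.048). This call was lost in 9 of 12 alternatives. These were all 6 fits without 1 library, at an adjusted p of 0.054 to 0.395, RLE scaling, no filter and only the groups compared. With the replicate block the adjusted p was 0.0039. col7a1 was at 32.0, 38.0 and 26.2 CPM with AP2 and 12.3, 1.62 and 11.8 CPM with AP2 plus kctd15, also without overlap (log2 -1.89 ± 0.48, adjusted p = 0.18). In direction, 37 of 48 collagens were lower, beside 47.7% of all genes, with a collagen median of -0.21 and an all-gene median of 0.01. For 10 of 48 all 3 libraries lay below those of AP2 alone and for 0 above, against 4.93% and 3.59% of all genes. At an unadjusted p under 0.05 stood 7 collagens and 5.18% of all genes. AP2 plus kctd15 replicate 2 stood apart here, as replicate 2 did among wild-type embryos. It was the lowest of its group for 36 of 48 collagens, against 30.8% of all genes. Collagen took 0.256% of its counts against 0.334% and 0.375% in the other replicates. Without it 32 of 48 collagens were lower, with a collagen median of -0.08, and the differences were -1.63 for col16a1 and -1.40 for col7a1 (adjusted p = 0.40 and 0.43). The groups were then apart for 10 collagens lower and 2 higher, against 8.45% and 7.02% of all genes.

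Adding kctd15 to AP2-P59 changed 0 of 48 collagens, beside 0% of all genes, with 6 collagens and 4.06% of all genes at an unadjusted p under 0.05 and 1 collagen called by DESeq2 beside 0.0717% of all genes. With the replicate block 1 collagen, col16a1, was lower (adjusted p = 0.036), beside 0.0583% of all genes. It went from 33.6, 24.9 and 24.1 CPM to 12.8, 6.11 and 6.66 CPM, with no overlap (log2 -1.69 ± 0.38, adjusted p = 0.56). Without AP2-P59 plus kctd15 replicate 1, the highest of its group, the difference was -2.11 (adjusted p = 0.29). Type I gene col1a1b was at 7.98, 10.2 and 9.31 CPM with AP2-P59 and 2.75, 4.21 and 3.92 CPM with kctd15 added (-1.33 ± 0.35, adjusted p = 0.93, and -1.18 without that library). Here 40 of 48 collagens were lower, beside 50.2% of all genes, with a collagen median of -0.26 and an all-gene median of 0.00. For 8 of 48 all 3 libraries lay below those of AP2-P59 alone and for 0 above, against 4.09% and 3.82% of all genes. Without AP2-P59 plus kctd15 replicate 1, 39 of 48 were lower with a median of -0.29, and 6 collagens and 5.31% of all genes stood at an unadjusted p under 0.05. The groups were then apart for 17 collagens lower and 0 higher, against 10.2% and 10.0% of all genes. The summed skeletal muscle list was also lower with kctd15 added, at 106 to 146 CPM against 156 to 187 CPM with no overlap, and its part in the collagen values was not tested.

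**Figure D4:**
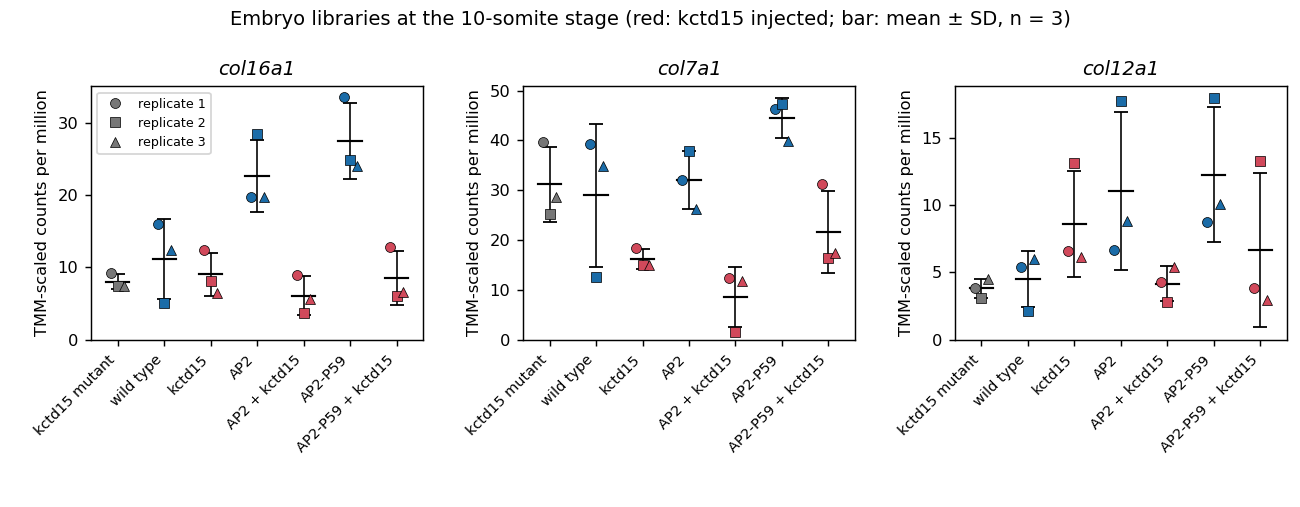
Level of col16a1, col7a1 and col12a1 in each of the 21 embryo libraries, in TMM-scaled CPM, by group (points: replicates 1 to 3; bars: mean ± SD, n = 3; red: kctd15 injected). For col16a1 the AP2 and AP2-P59 libraries, from 19.8 to 33.6, lie above all libraries with kctd15 added, from 3.70 to 12.8.

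Averaged over the 3 backgrounds (no AP2, AP2 and AP2-P59), kctd15 injection lowered 2 of 48 collagens, beside 0.525% of all genes changed, 0.0762% higher and 0.448% lower. With the replicate block it was 5 of 48, beside 1.34% of all genes. At an unadjusted p under 0.05 stood 9 collagens and 5.53% of all genes. The pair was col16a1, which fell by 1.30 ± 0.22 (adjusted p = 0.0054), and col7a1, which fell by 1.26 ± 0.27 (adjusted p = 0.040). For col16a1 the average joins differences of -1.89 with AP2 and -1.69 with AP2-P59 to a smaller one without AP2, given below. The col16a1 call held in all 24 alternatives, at a fall of 1.18 to 1.44. For col7a1 the call was lost in 13 of 18 fits without 1 library, up to an adjusted p of 0.10. Without AP2-P59 plus kctd15 replicate 1 both were called, at falls of 1.44 and 1.38. col7a1l did not move with col7a1: its averaged log2 difference was 0.15 ± 0.11 (adjusted p = 1).

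Whether kctd15 acts on collagens differently with and without AP2 was asked with contrasts added after the data had been seen. They called 0 of 48 collagens and 0% of all genes, with 6, 8 and 3 collagens at an unadjusted p under 0.05 beside 2.92%, 4.24% and 2.49% of all genes, for AP2 against no AP2, AP2-P59 against no AP2, and AP2 against AP2-P59. Without AP2-P59 plus kctd15 replicate 1 the last 2 of these became 5 and 1 collagens, beside 4.56% and 2.99% of all genes. For col16a1 the effect of kctd15 was -0.31 ± 0.37 without AP2, and the effect with AP2 differed from it by -1.58 ± 0.53 (adjusted p = 1.0). col12a1, another FACIT, had the largest of these differences with AP2, at -2.34 ± 0.75 (adjusted p = 1.0). It was at 6.67, 17.7 and 8.82 CPM with AP2, 4.29, 2.79 and 5.42 CPM with AP2 plus kctd15 and 6.56, 13.1 and 6.13 CPM with kctd15 alone. Some markers of matrix-forming and skin cells also passed the test when kctd15 was added to AP2, beside 0.0134% of all genes higher and 0.184% lower. Of 22 tested sclerotome and fibroblast genes 2 were lower, pdgfra and ogn, but the summed list overlapped, at 1809 to 2179 CPM with AP2 and 1918 to 2079 CPM with kctd15 added. Of 16 tested fin fold genes 1 was lower, frem2a, and that list overlapped too, at 1157 to 1436 and 1113 to 1313 CPM. Of 24 epidermis and periderm genes 3 were lower, the keratins krt17, krt92 and cyt1l, and 1 was higher, krt97, and the summed list was 22190 to 29244 CPM with AP2 and 17454 to 21992 CPM with kctd15 added, without overlap. Of 20 tested notochord genes 0 changed. The part of these cells in the fall of col16a1 was not tested.

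Mutant ovaries changed 0 of 50 tested collagens, beside 0.553% of all genes, 0.348% higher and 0.205% lower. Here 6 collagens and 14.8% of all genes stood at an unadjusted p under 0.05, and DESeq2 called 2 collagens beside 4.09% of all genes. All 3 mutant libraries lay above all wild-type libraries for 6 collagens and below for 3, against 8.16% and 7.16% of all genes. The 2 type VII genes had the smallest p. On the gonad scale col7a1l was at 5.79, 2.27 and 1.38 CPM in wild-type ovary and 17.5, 20.7 and 14 CPM in mutant ovary. The groups did not overlap, and the log2 difference was 2.46 ± 0.49 (adjusted p = 0.051, and 6.1e-05 to 0.21 over 12 alternatives). col7a1 was at 1.5, 0.658 and 0.163 CPM against 5.31, 10.9 and 2.75 CPM, also apart (3.00 ± 0.69, adjusted p = 0.087, and 0.00060 to 0.31 over 12 alternatives). The next smallest p belonged to col28a1d, with 11 estimated counts in mutant and 1 in wild-type ovary, and to col15a1b. Their log2 differences were 3.15 and 1.31 (adjusted p = 0.20 and 0.24). Anchoring fibril genes made up 0.630% of collagen counts in wild-type ovary and 4.50 ± 3.52% in mutant ovary (SD, n = 3). The mutant values were 2.2%, 8.55% and 2.74%, with a mean of 2.47% without replicate 2, whose collagen share of all counts was the lowest of its group at 0.0250%.

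The mutant ovaries were uneven as a group. Mutant ovary replicate 3 held 98829 CPM of the summed liver list (9 genes), against 20.8 to 2737 CPM in the other 5 ovary libraries. Mutant replicate 2 held 28.8 CPM of the summed smooth muscle list, against 149 to 316 CPM in the others, and stood apart in several collagens. col28a1l was at 92.1, 5.76 and 76.7 CPM in mutant ovaries against 97.2 to 124 CPM in wild type. col1a1a was at 86.3, 7.47 and 26.3 CPM against 21.6 to 42.3 CPM. Without mutant replicate 3 the differences were 2.58 for col7a1l and 3.34 for col7a1 (adjusted p = 0.060 and 0.054), and without mutant replicate 2 they were 2.31 and 2.34 (adjusted p = 0.083 and 0.13).

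Mutant testes also changed 0 of 50 collagens, beside 0.0696% of all genes, 0.0271% higher and 0.0425% lower, with 4 collagens and 7.01% of all genes at an unadjusted p under 0.05 and 1 collagen called by DESeq2 beside 1.13% of all genes. That gene, col17a1a, was at 21.4, 18.7 and 19.7 CPM in wild-type testis and 4.87, 4.25 and 3.45 CPM in mutant testis. The groups did not overlap. The log2 difference of -2.25 ± 0.41 had an adjusted p of 0.095 and did not pass the test. Over 12 alternatives the difference was -2.37 to -2.12 and the adjusted p 2.7e-11 to 0.48. The gene was called in 2 of them, DESeq2 and limma, and not in the other 10. Its duplicate col17a1b was at 11.8, 9.65 and 10.7 CPM in wild type and 14.8, 10.8 and 11.4 CPM in mutants, which overlapped. col5a2b was at 14.3 to 22.6 CPM in wild-type and 6.48 to 11.1 CPM in mutant testis (-1.17 ± 0.42, adjusted p = 0.51). The next smallest p belonged to col12a1 and col18a1, at log2 differences of -1.77 and -1.25 (adjusted p = 0.56 and 0.71).

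Beyond single genes, 35 of 50 collagens were lower in mutant testis, beside 42.9% of all genes. The collagen median was -0.40 and the all-gene median 0.07. All 3 mutant libraries lay below all wild-type libraries for 8 of 50 collagens, and above them for 1, against 5.72% and 10.1% of all genes. Collagen took 0.237%, 0.170% and 0.163% of counts in mutant testis, against 0.235% to 0.272% in wild type, so mutant replicate 1 overlapped. The summed sclerotome and fibroblast list was also lower, at 702, 344 and 305 CPM against 959 to 1214 CPM, as was each of the 9 leukocyte genes in sign, though their sum overlapped, at 106, 190 and 252 CPM against 225 to 662 CPM. Also lower was the summed epidermis and periderm list, at 1213, 1312 and 970 CPM against 1788 to 1983 CPM, with no overlap. The part of these cells in the collagen values, col17a1a included, was not tested.

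**Figure D5:**
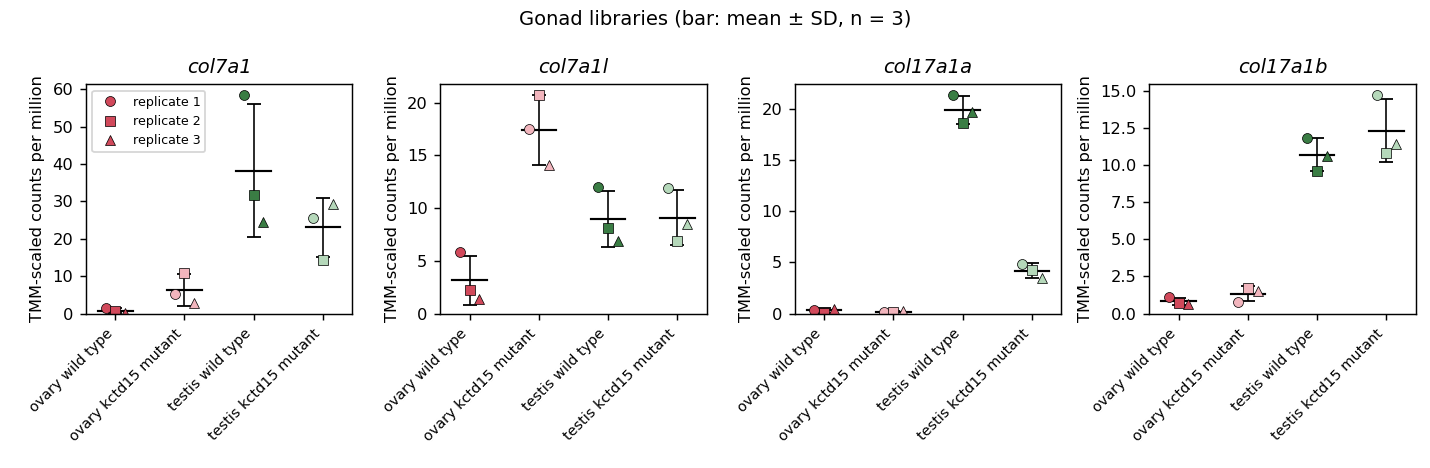
Level of the type VII genes (col7a1, col7a1l) and type XVII genes (col17a1a, col17a1b) in the 12 gonad libraries, in TMM-scaled CPM, by group (points: replicates 1 to 3; bars: mean ± SD, n = 3). The 3 mutant testis values of col17a1a, from 3.45 to 4.87, lie below the wild-type values, from 18.7 to 21.4, while col17a1b overlaps.

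The mutant effect was also compared between testis and ovary, and 0 of 50 collagens differed, beside 0.0812% of all genes, with 7 collagens and 10.9% of all genes at an unadjusted p under 0.05 and 2 collagens called by DESeq2 beside 1.52% of all genes. col7a1 was at 58.4, 31.8 and 24.5 CPM in wild-type testis and 25.6, 14.3 and 29.4 CPM in mutant testis. Its mutant effect in testis minus that in ovary was -3.73 ± 0.90 (adjusted p = 0.23). For col7a1l, at 6.91 to 12 CPM in wild-type and 6.84 to 11.9 CPM in mutant testis, it was -2.45 ± 0.67 (adjusted p = 0.29).

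Genes that make and process collagen were followed beside the collagens, as a list of 44 enzymes, chaperones and transport factors. In mutant embryos 1 of 40 tested rose and 2 fell, beside 1.36% and 2.73% of all genes. The procollagen-cleaving protease gene adamts2 rose from 1.19 to 5.63 CPM on the embryo scale, by 2.24 ± 0.35 (adjusted p = 0.0016). The crosslinking enzyme gene loxl2b fell from 9.77 to 1.15 CPM, by 3.08 (adjusted p = 0.0026), and leprel1, a prolyl 3-hydroxylase gene, from 33.7 to 17.9 CPM, by 0.91 (adjusted p = 0.025). Adding kctd15 to AP2 or AP2-P59 changed 0 of 40, beside 0.197% and 0% of all genes. Mutant ovary and testis changed 0 of 44, beside 0.553% and 0.0696% of all genes. The summed list was lower in mutant testis by a narrow gap, at 951.6 to 996.8 CPM against 999.5 to 1032 CPM in wild type. It overlapped between mutant and wild type in ovary and in embryos. With AP2-P59 the summed list was above wild-type embryos, at 3601 to 4159 CPM against 2573 to 3548 CPM. With kctd15 or AP2 alone it overlapped the wild type. Of the 44, 22 were higher and 13 lower in testis than in ovary, beside 41.6% and 28.9% of all genes, while the summed list went the other way, at 999.5 to 1032 CPM in testis and 2476 to 3159 CPM in ovary on the gonad scale. In ovary 8 were higher and 24 lower than in embryo, beside 32.6% and 37.2%, and in testis 7 were higher and 28 lower than in embryo, beside 34.4% and 32.5%.

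Receptors and degrading enzymes formed a list of 23 genes, 22 of them tested in embryos. In mutant embryos the collagenase gene mmp13a rose by 1.69 (adjusted p = 0.049), while the gelatinase gene mmp2 fell by 0.89 (adjusted p = 0.0094) and the collagen receptor gene ddr2l by 0.81 (adjusted p = 0.032), so 1 of 22 rose and 2 fell, beside 1.36% and 2.73% of all genes. Adding kctd15 to AP2 lowered 1 of 22, the gelatinase gene mmp9, by 1.92 (adjusted p = 0.014), beside 0.184% of all genes lower. Between testis and ovary 12 of 23 were higher and 2 lower in testis, beside 41.6% and 28.9% of all genes. The summed list was lower in mutant embryos, at 498.1 to 526.4 CPM against 529.5 to 615.3 CPM on the embryo scale, without overlap. It was also lower in mutant testis, at 412.7 to 489.3 CPM against 622.6 to 695.9 CPM on the gonad scale. In mutant ovary it overlapped the wild type.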

How the data were processed

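Poly(A) RNA from 33 zebrafish libraries was made from 100 ng RNA with a stranded kit, per the labels' protocols. The submitters' processing notes name Trimmomatic 0.36, kallisto 0.43.0, edgeR and build GRCz10. The deposited gene table holds expected (estimated) counts, and transcript estimated counts were deposited too. The authors also deposited a normalized signal per gene, for 25374 genes. Within a library it was the same multiple of every count, to a relative spread of 8.8e-07. Estimated counts were rounded to whole numbers.

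Fits used edgeR 4.0.16 in R 4.3.3 (TMM, filterByExpr with a minimum count of 10 and total of 15, robust quasi-likelihood test, Benjamini-Hochberg over all genes): 21 embryo libraries (22305 genes), 12 gonad libraries (25870) and 9 wild-type libraries (25039). Testis against ovary came from the gonad fit, comparisons with the embryo from the wild-type fit. Standard errors are the log2 fold change over the square root of F. Low counts have exact intervals. Alternatives were RLE scaling, no filter, DESeq2 1.42.0, limma 3.58.1 on log2(normalized signal + 0.5), a replicate block, only the groups compared, and each library left out.

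Same-numbered libraries deviated together (every correlation over 0.1) for kctd15 and AP2 against wild type and for kctd15 added to AP2 or AP2-P59; the labels do not state a pairing.

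Genes named were drawn, per comparison, from up to 10 rises and 10 falls past the threshold with at least 1 CPM. Where under 4 passed, they were drawn from the 4 smallest p, and for levels from 4 per class. Not every gene picked this way is described. Duplicates of named genes, col7a1l beside col7a1, and the transcripts were added after values were seen. In mutant ovary col28a1l and col1a1a were given outside this rule, for the spread between libraries. Members and lists were chosen with earlier results of these data known. RefSeq names came from GRCz12tu, and 45 collagens had a current symbol.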

Additional observations from a re-analysis of the deposited data

How the results depend on the processing

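Of 1395 gene values under alternative settings 37 lost and 24 gained a call and 0 reversed; the genes were chosen for their change or small p, so this does not show stability. For mutant embryos the count of 1 became 7 with the replicate block (beside 13.1% of all genes, against 4.09% without it). It became 4 with DESeq2, 2 with the 2 groups alone and 0 to 3 without 1 library. Calls over all genes were 912 in the main fit, 1661 with DESeq2 and 1054 with the 2 groups alone. For kctd15 added to AP2 the count of 1 became 0 with RLE, without the filter and with the 2 groups alone, and 2 with DESeq2. Over all genes there were 44 calls in the main fit and 43, 43, 0 and 150 under these settings, in that order. Without 1 library the collagen count was 0 to 0. For kctd15 added to AP2-P59, 0 became 1 with the block and 1 with DESeq2, beside 13 and 16 of all genes. For the averaged kctd15 effect, 2 became 1 without the filter, 5 with the block and 1 with only the groups compared. All-gene calls went from 117 in the main fit to 115, 298 and 95 under these settings, in that order. Without 1 library the collagen count was 1 to 3. For mutant ovary, 0 became 1 with the block, 1 with limma, 2 with DESeq2 and 0 to 1 without 1 library. The main fit called 143 of all genes there, the block 111, limma 199 and DESeq2 1058. For mutant testis, 0 became 1 with limma and 1 with DESeq2, beside 117 and 293 of all genes, against 18 in the main fit. For the mutant effect in testis against that in ovary, 0 became 2 with DESeq2, beside 394 of all genes, against 21 in the main fit. Tissue counts were 35, 41 and 41 for testis against ovary, ovary against embryo and testis against embryo. Without 1 library they became 31 to 35, 39 to 42 and 37 to 39, in that order. With only the groups compared they were 43, 41 and 43, beside 17855, 16171 and 16965 of all genes. The main fits called 18235, 17478 and 16766 of all genes. Fits with 1 library left out assume that smaller groups vary like the others. For mutant embryos without wild-type replicate 2, 3 collagens and 442 of all genes were called. For the other fits without 1 library the all-gene calls are not given here. Their collagen counts thus cannot be told apart from a general gain or loss of calls. The cause of other moves was not tested.

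The block changed no other count of collagens called by over 1.5 times, but over all genes it moved calls from 44 to 143 for kctd15 added to AP2 and from 0 to 12 for kctd15 alone. Replicate numbers did not pair for mutant embryos (correlations of 0.0598 to 0.263) or the gonads, so a block there rests on a number only. In testis against ovary, col5a3a lost its call in 5 of 6 fits without 1 library and col8a1a in 2. Genes under about 1 CPM rest on few counts, and intervals cover counting error only.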
